A study of Mus musculus with 6 samples.

Results

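The plasma cell identity genes described here are 10 genes, taken by name from the deposited expression table: the regulators Prdm1 and Xbp1, the surface receptors Sdc1, Tnfrsf17 and Slamf7, the J chain gene Igj with the elongation factor gene Ell2, and the endoplasmic reticulum genes Creld2, Derl3 and Fkbp11. They are 10 of 22098 gene names in the table, and each has 1 transcript in it. Polyadenylated RNA was sequenced from sorted IgM+ B cells of the bone marrow of C57BL/6 mice aged 6 weeks. The 3 genotypes are wild type, Ikaros ZnF1-/- and Ikaros ZnF4-/-, with 2 libraries each, and the mutants lack zinc finger 1 or zinc finger 4 of Ikaros, a DNA-binding regulator of lymphocyte development. The labels name no treatment and do not say how the alleles were made, whether animals were pooled, or whether the libraries of a genotype came from different mice. P-values therefore measure only the spread between these libraries, which may be technical. Levels are RPKM, which divide reads by transcript length and library size, so they can be set side by side between genes. The depth of the libraries is unknown, because the values could not be turned back into reads.

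Plasma cells are the antibody-secreting end stage of the B lineage. Blimp-1, encoded by Prdm1, switches off the B cell programme, and XBP1 enlarges the endoplasmic reticulum and its folding machinery so that antibody can be made in bulk. J chain links the units of secreted polymeric antibody, and a resting IgM+ B cell carries its antibody on the surface instead. Bone marrow is a main home of long-lived plasma cells, so a marrow sample can hold both stages. In RNA from a mixed sample, a change in the number of cells of a type and a change in RNA per cell cannot be told apart.

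Ikzf1, the gene of Ikaros, was at 176.5 and 178.6 RPKM in wild type, 201.1 and 168.4 in ZnF1-/- cells and 287.3 and 244.0 in ZnF4-/- cells; 1 value per gene does not show a missing finger, so it does not check the labels. All 6 libraries had the RNA of B cells, with Cd79b, a chain of the B cell receptor, between 1604 and 2227 RPKM and the T cell gene Cd3e between 0.2 and 0.7. The 8 T cell markers summed to 5.1 and 6.7 RPKM in wild type, 11.3 and 12.7 in ZnF1-/- cells, and 7.7 and 9.3 in ZnF4-/- cells. Of the 3 tested, only Cd4 was called. It was higher in ZnF1-/- cells than in wild type (log2 fold change 1.97, adjusted p = 0.0347 by limma) and than in ZnF4-/- cells (1.48, adjusted p = 0.0191). Libraries differed in their content of other marrow cells. The 16 granulocyte and monocyte markers summed to 492 and 779 RPKM in wild type, 1532 and 8214 in ZnF1-/- cells, and 1902 and 2091 in ZnF4-/- cells. ZnF1 replicate 2 thus held the most RNA of these cells, and wild-type replicate 1 the least. For the plasma cell genes it was wild-type replicate 1 that stood apart, and changes against wild type are also given without it where they move. A genotype left with 1 library in such a fit is assumed to vary like the others.

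The plasma cell genes were highest in 1 wild-type library rather than in 1 genotype. Wild-type replicate 1 held the highest value of the 6 libraries for 8 of the 10 genes, all but Slamf7 and Ell2, which peaked in ZnF4-/- cells. Among genes with a mean of at least 1 RPKM, which were the ones tested, this was so for 6 of 8, while 13.3% of all 10322 tested genes were highest in that library. Every one of the 10 was higher in wild-type replicate 1 than in replicate 2, although the gap for Slamf7 was only 0.02 on the log2(RPKM + 0.5) scale used for all differences below, and turned to -0.0062 when the values were rescaled to TPM. The gap exceeded 2-fold for 5 of the 10: Igj, Tnfrsf17, Fkbp11, Prdm1 and Xbp1. Of the 8 tested, 3 did so, against 0.562% of all tested genes. The median gap over the 10 was 1.01, and the median over all tested genes was 0. In ZnF1-/- cells, only Igj was more than 2-fold higher in replicate 1 than in replicate 2, as were 0.63% of tested genes, and in ZnF4-/- cells no plasma cell gene differed by 2-fold between the libraries. There is no test of a difference between 2 single libraries.

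**Figure D1:**
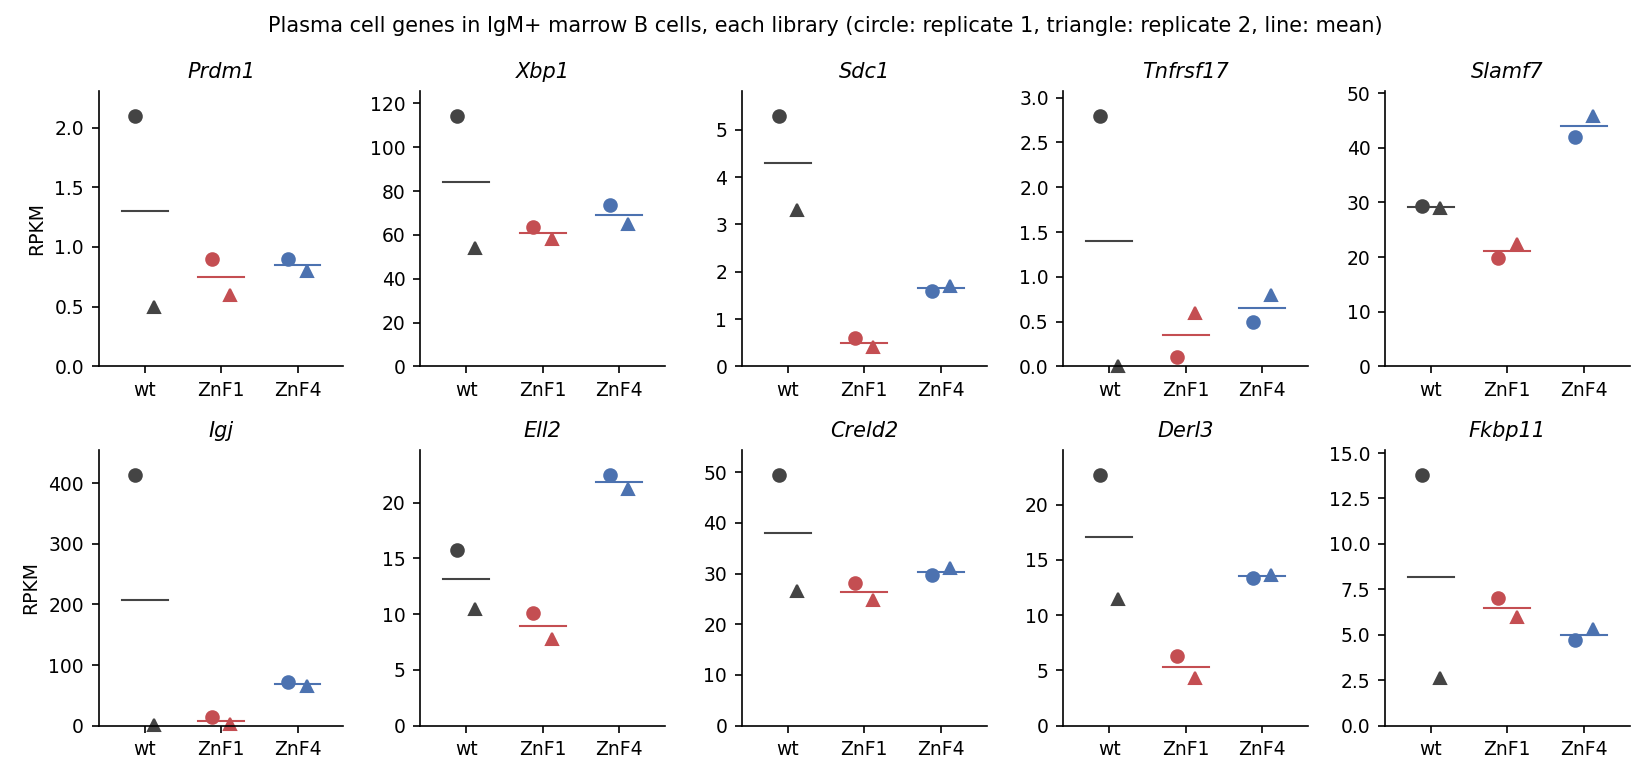
RPKM (vertical axes, each starting at 0) of the 10 plasma cell genes in wild type (wt) and the mutants ZnF1-/- and ZnF4-/-; circles are replicate 1, triangles are replicate 2 and lines are means of 2 libraries. Wild-type replicate 1 is highest for 8 genes, with Igj at 413.8 against 1.1 in replicate 2, while Slamf7 and Ell2 are highest in ZnF4-/- cells.

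**Figure D2:**
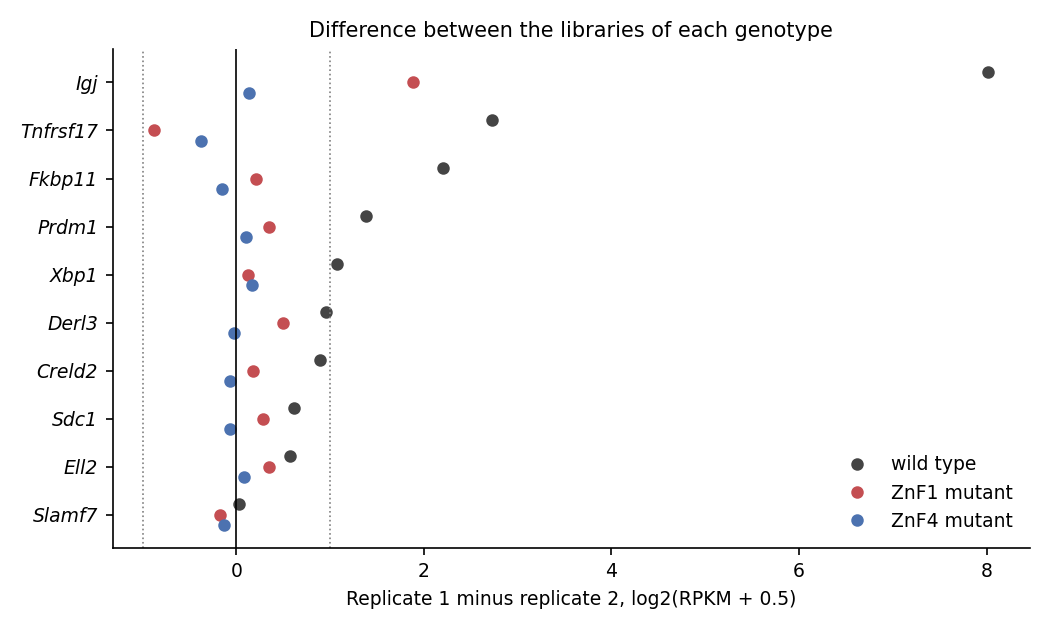
Difference between replicate 1 and replicate 2 on the log2(RPKM + 0.5) scale for each gene, 1 point per genotype; dotted lines mark 2-fold. The wild-type points reach 8.02 for Igj, and all ZnF4 points lie inside the 2-fold lines.

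Of the transcription factor genes, Prdm1 was barely detected and Xbp1 was abundant. Prdm1 stood at 2.1 RPKM in wild-type replicate 1, 0.5 in wild-type replicate 2, 0.9 and 0.6 in ZnF1-/- cells, and 0.9 and 0.8 in ZnF4-/- cells. All mutant values lay between those of the wild-type libraries. Its mean of 0.967 RPKM missed the minimum of 1, so it was not tested with the other genes, and with the minimum lowered to 0.2 the log2 fold change was -0.38 in ZnF1-/- cells (adjusted p = 0.782) and -0.26 in ZnF4-/- cells (adjusted p = 0.810, both by limma). Xbp1 was at 114.4 and 54.1 RPKM in wild type, 63.5 and 58.2 in ZnF1-/- cells, and 73.4 and 65.1 in ZnF4-/- cells. Again the mutants lay between the wild-type libraries. For Xbp1 the log2 fold change was -0.37 in ZnF1-/- cells (95% confidence interval -1.08 to 0.345) and -0.19 in ZnF4-/- cells (-0.901 to 0.529), and neither passed. Without wild-type replicate 1, both became positive, at 0.17 and 0.35 (adjusted p = 0.839 and 0.490 by limma). One value per gene does not show how much of the Xbp1 RNA was in its spliced, active form.

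The surface receptor genes took 3 different patterns. Sdc1 encodes syndecan-1 (CD138), the surface proteoglycan by which plasma cells are usually identified. Its level was 5.3 and 3.3 RPKM in wild type, 0.6 and 0.4 in ZnF1-/- cells, and 1.6 and 1.7 in ZnF4-/- cells. No library of a mutant reached the lower wild-type value, and the mutants did not overlap each other. Sdc1 fell in ZnF1-/- cells (log2 fold change -2.24, SE 0.278, adjusted p = 0.0347 by limma), from 4.30 ± 1.41 to 0.50 ± 0.141 RPKM (SD, n = 2 each). In ZnF4-/- cells, the log2 fold change was -1.13 (adjusted p = 0.0881, and -0.82 without wild-type replicate 1), and the difference between the mutants was -1.11 (adjusted p = 0.0712), and neither passed. Without wild-type replicate 1 the ZnF1 value was -1.93, and without single libraries it ran from -2.54 to -1.93. The call was kept only without ZnF1 replicate 1. It was also lost when only wild type and ZnF1-/- were fitted (adjusted p = 0.235 by limma) or without a filter on low values (adjusted p = 0.209). In these 2 settings, and without either wild-type or either ZnF4 library, no tested gene at all was called. Those losses are therefore not particular to Sdc1.

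Slamf7 encodes a SLAM family receptor found on plasma cells and also on natural killer and other immune cells. Its values were 29.4 and 28.9 RPKM in wild type, 19.8 and 22.4 in ZnF1-/- cells, and 42.0 and 45.9 in ZnF4-/- cells. The 3 genotypes did not overlap, and the wild-type libraries, which differed in most plasma cell genes, were nearly equal here. Slamf7 was lower in ZnF1-/- than in ZnF4-/- cells (log2 fold change -1.04, SE 0.122, adjusted p = 0.0052 by limma). Against wild type it stood at -0.46 in ZnF1-/- cells (95% confidence interval -0.744 to -0.175, adjusted p = 0.209) and at 0.58 in ZnF4-/- cells (0.298 to 0.867, adjusted p = 0.0522). Neither passed. The direct difference was not called without ZnF4 replicate 1 (adjusted p = 0.0902) or ZnF4 replicate 2 (adjusted p = 0.0845). The 8 natural killer cell markers summed to 3.1 and 7.6 RPKM in wild type, 7.9 and 20.5 in ZnF1-/- cells, and 2.6 and 2.7 in ZnF4-/- cells. They were thus lowest in the genotype with the highest Slamf7; of these markers, Ncr1 and Eomes were listed at 0 in ZnF4 replicate 1. Their part in the Slamf7 values was not tested.

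Tnfrsf17 encodes BCMA, a receptor for survival signals of plasma cells. It was at 2.8 RPKM in wild-type replicate 1 and listed at 0 in wild-type replicate 2, at 0.1 and 0.6 in ZnF1-/- cells, and at 0.5 and 0.8 in ZnF4-/- cells. Only wild-type replicate 1 exceeded 1 RPKM. Like Prdm1 it missed the minimum for the test. With the minimum at 0.2, its log2 fold change was -0.66 in ZnF1-/- cells (adjusted p = 0.803) and -0.17 in ZnF4-/- cells (adjusted p = 0.940, both by limma).

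Igj had the widest range of the 10 genes. The J chain gene, now named Jchain, was at 413.8 RPKM in wild-type replicate 1 and 1.1 in wild-type replicate 2, a ratio of 376, and this was the largest gap in that direction among the tested genes. It was at 13.5 and 3.3 RPKM in ZnF1-/- cells and at 71.9 and 65.2 in ZnF4-/- cells. The mutants did not overlap each other, and all 4 mutant libraries lay between the wild-type values. The log2 fold change was -1.82 in ZnF1-/- cells (95% confidence interval -6.85 to 3.21) and 1.42 in ZnF4-/- cells (-3.61 to 6.45). Neither passed, and the intervals span both directions. Without wild-type replicate 1 the values were 2.19 and 5.43, and without wild-type replicate 2 they were -5.83 and -2.59, so the choice of control library set the sign in both mutants. The direct difference needs no wild-type mean: ZnF1-/- cells stood below ZnF4-/- cells (log2 fold change -3.24, SE 2.15, adjusted p = 0.463 by limma), where the spread of the wild-type pair enters the error. When only the mutants were fitted, the adjusted p was 0.0547, and this too did not pass.

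Ell2 encodes a transcription elongation factor that favours the secreted form of immunoglobulin heavy chain RNA in plasma cells. Wild type held 15.8 and 10.5 RPKM of its RNA, ZnF1-/- cells held 10.1 and 7.8, and ZnF4-/- cells held 22.5 and 21.2. The genotypes did not overlap, although ZnF1 replicate 1 lay close under wild-type replicate 2. Ell2 was lower in ZnF1-/- than in ZnF4-/- cells (log2 fold change -1.25, SE 0.211, adjusted p = 0.0206 by limma). The values against wild type were -0.51 (adjusted p = 0.395) and 0.74 (adjusted p = 0.123), and without wild-type replicate 1 they were -0.23 and 1.02, none passing. Without ZnF1 replicate 2 the direct difference was -1.08 (adjusted p = 0.0599), without ZnF4 replicate 1 it was -1.21 (adjusted p = 0.187) and without ZnF4 replicate 2 it was -1.29 (adjusted p = 0.174). Nor did it pass without a filter on low values (adjusted p = 0.0739).

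The endoplasmic reticulum genes serve the folding and clearance of secreted proteins: Derl3 takes part in removing misfolded proteins from the compartment, Creld2 is a stress-induced resident protein, and Fkbp11 is a prolyl isomerase of secretory cells. Sequences upstream of the start site are shown for Creld2 and Derl3 because they alone of the 10 held a complete endoplasmic reticulum stress response element, and for Igj because its level varied most. Each run is the 250 bases before the RefSeq transcription start, read 5′ to 3′ on the strand of the gene, in the assembly GRCm38.p6. They lie at chr15:88819396-88819645 on the plus strand (Creld2), chr10:75893148-75893397 on the plus strand (Derl3) and chr5:88527898-88528147 on the minus strand (Igj). Capitals mark each CCACG, and in the full element also its CCAAT, on either strand, so that on the printed strand they may read CGTGG and ATTGG.
Creld2: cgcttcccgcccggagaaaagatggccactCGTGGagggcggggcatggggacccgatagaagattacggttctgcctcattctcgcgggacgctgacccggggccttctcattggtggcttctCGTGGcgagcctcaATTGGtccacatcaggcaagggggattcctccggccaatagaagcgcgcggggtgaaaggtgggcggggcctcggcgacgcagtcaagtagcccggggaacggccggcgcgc
Derl3: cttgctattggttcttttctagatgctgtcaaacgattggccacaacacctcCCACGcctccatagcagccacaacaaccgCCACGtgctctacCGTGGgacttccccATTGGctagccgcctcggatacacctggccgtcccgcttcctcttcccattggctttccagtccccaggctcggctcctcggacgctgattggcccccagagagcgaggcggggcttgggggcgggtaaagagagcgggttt
Igj: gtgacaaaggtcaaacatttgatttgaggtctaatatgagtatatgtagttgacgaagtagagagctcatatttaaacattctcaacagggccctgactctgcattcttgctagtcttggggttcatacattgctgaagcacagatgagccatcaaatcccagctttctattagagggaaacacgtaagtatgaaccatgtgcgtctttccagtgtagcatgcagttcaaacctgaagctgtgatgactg

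The full element, CCAAT and CCACG with 9 bases between them, begins 126 bases before the start of Creld2 and 156 before that of Derl3 on the printed strand. It is the classic site of the ATF6 arm of the unfolded protein response, which XBP1 can also bind. It occurred in 0.119% of the 32851 promoter windows of 300 bases, which run from 250 bases before to 50 after a start. All 10 genes were matched to 11 such windows, with a pair of windows for Fkbp11. CCACG alone, which the full element contains, was found for Creld2, Derl3, Fkbp11, Prdm1 and Sdc1, and in 32.8% of all windows. The Ikaros core TGGGAA was found for Derl3, Prdm1 and Xbp1, and in 25.6% of all windows. No window of the 10 held the XBP1 element TGACGTGG (0.676% of all windows), the octamer ATGCAAAT (1.74%) or the Blimp-1 motif GAAAGTGAA (0.581%), all searched on both strands. These matches describe letters in a window and do not show binding.

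Neither Creld2 nor Derl3, whose sequences are shown, was called in any comparison. Creld2 was at 49.5 and 26.5 RPKM in wild type, 28.1 and 24.8 in ZnF1-/- cells, and 29.7 and 31.1 in ZnF4-/- cells. Apart from wild-type replicate 1, its libraries lay within 24.8 to 31.1. The log2 fold change was -0.45 in ZnF1-/- cells (adjusted p = 0.568) and -0.25 in ZnF4-/- cells (adjusted p = 0.676 by limma). Leaving out wild-type replicate 1 gave -0.0054 and 0.19. Derl3 was at 22.7 and 11.5 RPKM in wild type, 6.3 and 4.3 in ZnF1-/- cells, and 13.4 and 13.6 in ZnF4-/- cells. Both ZnF1 libraries were below all other libraries. Its log2 fold change was -1.55 in ZnF1-/- cells (SE 0.306, 95% confidence interval -2.26 to -0.831, adjusted p = 0.118) and -0.25 in ZnF4-/- cells (adjusted p = 0.726), and the direct difference was -1.29 (adjusted p = 0.0610 by limma). Without wild-type replicate 1 the values against wild type were -1.07 and 0.22. None passed, although the direct difference did when only the mutants were fitted (adjusted p = 0.0437 by limma). Without single libraries, the direct difference ran from -1.54 to -1.04 and the ZnF1 value from -2.02 to -1.07.

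Fkbp11 was at 13.8 and 2.6 RPKM in wild type, 7.0 and 6.0 in ZnF1-/- cells, and 4.7 and 5.3 in ZnF4-/- cells. The wild-type libraries enclosed all mutant values. Its log2 fold change was 0.07 in ZnF1-/- cells (95% confidence interval -1.33 to 1.46) and -0.28 in ZnF4-/- cells (-1.67 to 1.12). Without wild-type replicate 1 both were positive, at 1.17 and 0.83, and without wild-type replicate 2 both were negative, at -1.03 and -1.38, none passing. Fkbp11 was the 1 tested member that was higher in ZnF1-/- than in ZnF4-/- cells, with no overlap (0.35, adjusted p = 0.812 by limma).

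By level, the 10 genes kept only part of their order from library to library. The means over 6 libraries (± SD) were 94.8 ± 159 RPKM for Igj, 71.5 ± 22 for Xbp1, 31.6 ± 9.04 for Creld2, 31.4 ± 10.5 for Slamf7 and 14.7 ± 6.18 for Ell2. Those of Derl3, Fkbp11, Sdc1, Prdm1 and Tnfrsf17 were 11.97 ± 6.50, 6.57 ± 3.84, 2.15 ± 1.86, 0.967 ± 0.579 and 0.80 ± 1.03. Igj exceeded Xbp1 in 2 of 6 libraries, wild-type replicate 1 and ZnF4 replicate 2. Xbp1 exceeded Creld2, and Slamf7 exceeded Ell2, in all 6. The remaining neighbours, Creld2 and Slamf7, Ell2 and Derl3, Derl3 and Fkbp11, Fkbp11 and Sdc1, Sdc1 and Prdm1, and Prdm1 and Tnfrsf17, did not keep that order in at least 1 library.

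Counted over the 8 tested genes, few passed the test. Against wild type, 1 of 8 fell (Sdc1), 7 did not pass, and none rose by limma, where 0.271% of all tested genes were called and 0.174% were called lower. The log2 fold change was negative for 7 of the 8, with a median of -0.49 against -0.0019 over all tested genes. It was negative for 5 of the 8 without wild-type replicate 1, with a median of -0.12. Of the 8, 4 were lower with no overlap between the libraries (Sdc1, Slamf7, Ell2 and Derl3), as were 20.3% of all tested genes. Sdc1 passed the filter on the strength of its wild-type and ZnF4 values, since both ZnF1 libraries were below 1 RPKM.

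In ZnF4-/- cells, 0 of 8 were called against wild type by limma, where 3.2% of tested genes were called; 3 of the 8 had an unadjusted p under 0.05 (Sdc1, Slamf7 and Ell2), as had 17.4% of all tested genes. The median log2 fold change was -0.22, against -0.016 over all tested genes, with 3 positive and 5 negative. The median without wild-type replicate 1 was 0.47, with 7 positive and 1 negative. Libraries did not overlap for these 3 genes, Slamf7 and Ell2 being higher and Sdc1 lower, and 50.4% of all tested genes had no overlap in either direction. When only wild type and ZnF4-/- cells were fitted, Sdc1 (adjusted p = 0.0376) and Slamf7 (adjusted p = 0.0398) passed. The wild-type libraries are shared by both comparisons.

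Between the mutants, 2 of 8 were lower in ZnF1-/- cells (Slamf7 and Ell2), 6 did not pass, and 4.78% of all tested genes were called and 2.69% were called lower. Of the 8, 7 had a negative log2 fold change, with a median of -1.08 against 0.029 over all tested genes. For the same 7, both ZnF1 libraries lay below both ZnF4 libraries, as they did for 21% of all tested genes. This comparison does not use the wild-type means.

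**Figure D3:**
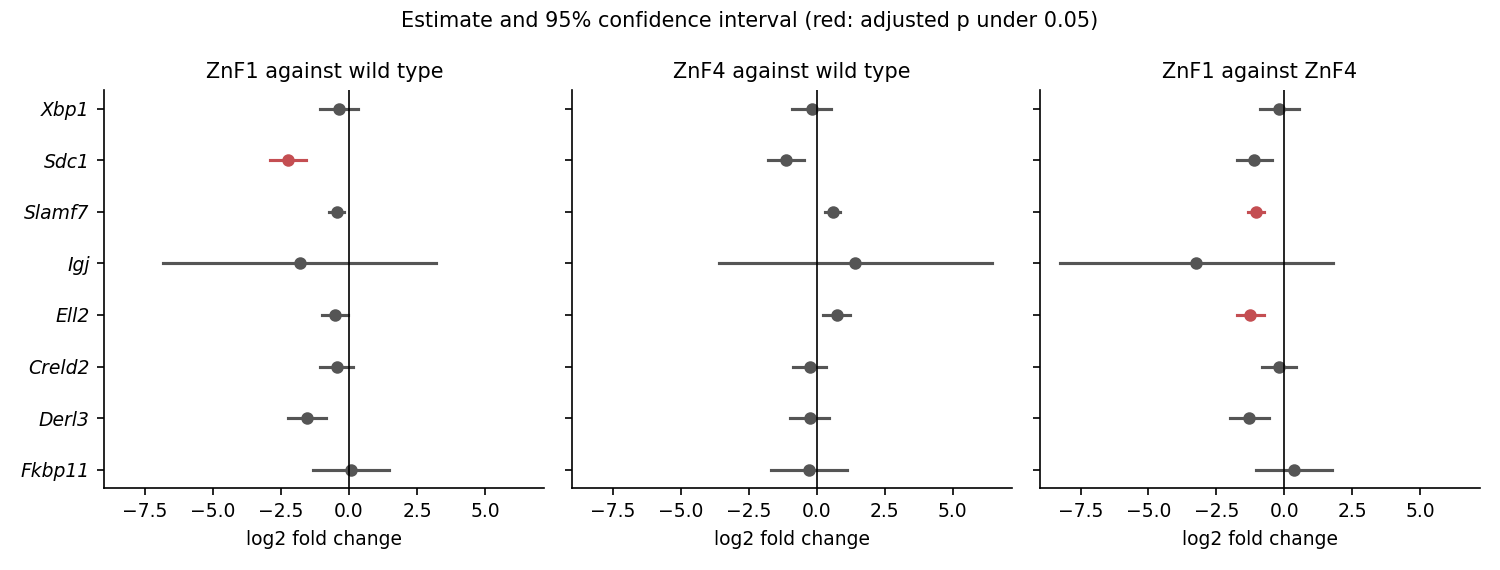
Log2 fold change (point) with its 95% confidence interval (line) for the 8 tested plasma cell genes in the 3 comparisons; red marks an adjusted p under 0.05. Sdc1 is called in ZnF1-/- cells and Slamf7 and Ell2 between the mutants, and the interval of Igj reaches from -8.27 to 1.79 in the direct comparison.

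The ZnF4 libraries lay between the wild-type libraries for most of the genes. Both ZnF4 values were above wild-type replicate 2 and below wild-type replicate 1 for 7 of the 10: Igj, Xbp1, Prdm1, Tnfrsf17, Creld2, Derl3 and Fkbp11. Of the 8 tested, this held for 5, against 4.91% of all tested genes. This share is not like for like, since few of all tested genes had wild-type libraries so far apart. Wild-type replicate 1 was over 2-fold above replicate 2 for 3 of the 8 and for 0.562% of all tested genes. In ZnF4-/- cells, Sdc1 lay below both wild-type libraries, and Slamf7 and Ell2 lay above both. For Igj, the ZnF4 mean was 62.3 times the value of wild-type replicate 2, and for Fkbp11 it was 1.92 times that value. The position was not particular to ZnF4-/- cells, since both ZnF1 libraries also lay between for Igj, Xbp1, Prdm1, Tnfrsf17 and Fkbp11.

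Of the other genes of the secretory pathway, 1 passed the test. Of 32 genes for folding in the endoplasmic reticulum and the unfolded protein response, all tested, none was called in any comparison by limma, with 4, 3 and 4 at an unadjusted p under 0.05 in the ZnF1, ZnF4 and direct comparisons. Over all tested genes, 11.9%, 17.4% and 20% had an unadjusted p under 0.05 in these comparisons. Their median log2 fold change was -0.12 in ZnF1-/- cells and -0.17 in ZnF4-/- cells. The smallest p-values belonged to Txndc11, a thioredoxin family gene (-0.69 in ZnF1-/- cells, adjusted p = 0.0752), and Ero1lb, an oxidase of the folding pathway (-0.46 in ZnF4-/- cells, adjusted p = 0.110, and 0.48 higher in ZnF1-/- than in ZnF4-/- cells, adjusted p = 0.0794). Within wild type, 26 of the 32 were higher in replicate 1, with a median gap of 0.28, and none differed by 2-fold. In ZnF1-/- cells, 27 of 32 were higher in replicate 1 as well, with a median gap of 0.18, and in ZnF4-/- cells 22 of 32 were, with a median gap of 0.14.

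Of 44 genes for translocation into the endoplasmic reticulum, glycosylation and export, 43 were tested. Only Tram2, a translocation-associated membrane protein gene, was called, and only in the ZnF4 comparison, where 3.2% of all tested genes were called. It fell there by 0.79 (adjusted p = 0.0472 by limma), from 14.5 ± 2.40 to 8.10 ± 0.566 RPKM, and its log2 fold change in ZnF1-/- cells was -0.87 (adjusted p = 0.1). The ZnF4 call was lost without any 1 of the wild-type or ZnF4 libraries (adjusted p = 0.126 to 0.307) and under 6 other settings, among them quantile normalization (adjusted p = 0.062). The median over the 43 was -0.097 in ZnF1-/- cells and -0.077 in ZnF4-/- cells. Within wild type, 37 of 43 were higher in replicate 1, with a median gap of 0.17.

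A further 20 plasma cell genes were listed, of which 17 were tested and none was called in any comparison by limma, with 8, 4 and 8 at an unadjusted p under 0.05 (11.9%, 17.4% and 20% of all tested genes). The median log2 fold change was -0.31 in ZnF1-/- cells, -0.023 in ZnF4-/- cells and -0.34 between the mutants. In ZnF1-/- cells the value was negative for 12 of the 17 and positive for 5. With no overlap with wild type, 8 were lower there and 2 higher, as were 2100 and 2179 of all 10322 tested genes. Bhlha15, which encodes the secretory cell factor Mist1, was at 6.8 and 4.6 RPKM in wild type, 1.7 and 1.2 in ZnF1-/- cells and 4.1 and 2.8 in ZnF4-/- cells (-1.66 in ZnF1-/- cells, adjusted p = 0.0752). Eaf2, a partner of ELL elongation factors, was at 13.9 and 9.9, 4.5 and 2.8, and 9.3 and 6.2 RPKM in the same order (-1.59 in ZnF1-/- cells, adjusted p = 0.0926). For both genes the ZnF1 libraries lay below all others, the same order of genotypes as for Sdc1. Zbp1, a sensor of nucleic acids, was at 28.1 and 32.6 RPKM in wild type, 30.5 and 25.5 in ZnF1-/- cells and 14.2 and 19.9 in ZnF4-/- cells (-0.83 in ZnF4-/- cells, adjusted p = 0.0668, and 0.71 higher in ZnF1-/- than in ZnF4-/- cells, adjusted p = 0.0795). Trp53inp1, a p53-induced gene, was at 95.9 and 80.0, 66.9 and 46.1, and 51.7 and 36.1 RPKM in the same order (-1.01 in ZnF4-/- cells, adjusted p = 0.0714). Zbp1 thus ran otherwise, with only its ZnF4 libraries low. When only wild type and ZnF4-/- cells were fitted, Zbp1 and Trp53inp1 passed (adjusted p = 0.0419 and 0.0268). In wild type, 14 of the 17 were higher in replicate 1, with a median gap of 0.37, as were 5066 of all 10322 tested genes. In ZnF1-/- cells 12 of the 17 were too, with a median gap of 0.25, and in ZnF4-/- cells 4 were.

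Of the genes that B cells switch off on becoming plasma cells, only Sfpi1 and Bcl6 passed the test. Of 17 such genes, all tested, 0 were called in ZnF1-/- cells by limma, where 0.271% of all tested genes were called. In ZnF4-/- cells 1 fell, where 3.2% of all tested genes were called. The direct comparison called 2, both higher in ZnF1-/- than in ZnF4-/- cells, and 4.78% of all tested genes. In the ZnF1, ZnF4 and direct comparisons, 6, 5 and 6 had an unadjusted p under 0.05 by limma. Over all tested genes, the shares were 11.9%, 17.4% and 20%. The smallest p-values of the 17 in ZnF1-/- cells belonged to Cr2 (log2 fold change 0.84, adjusted p = 0.163) and Ebf1 (-0.60, adjusted p = 0.188 by limma). Sfpi1, which encodes PU.1, fell in ZnF4-/- cells from 78.5 ± 0.354 to 45.2 ± 0.636 RPKM (log2 fold change -0.79, adjusted p = 0.0133) and was 0.80 higher in ZnF1-/- than in ZnF4-/- cells (adjusted p = 0.0108). Bcl6, the germinal centre repressor that opposes Prdm1, was at 30.7 and 27.2 RPKM in wild type, 33.2 and 31.3 in ZnF1-/- cells and 19.7 and 20.4 in ZnF4-/- cells. It was 0.67 higher in ZnF1-/- than in ZnF4-/- cells (adjusted p = 0.0247), and its ZnF4 value of -0.52 did not pass (adjusted p = 0.0753). Between the wild-type libraries, 9 of the 17 were higher in replicate 1, with a median gap of 0.012. The ZnF4 call of Sfpi1 was lost without any 1 wild-type or ZnF4 library (adjusted p = 0.117 to 0.135). Between the mutants, Sfpi1 lost its call without either ZnF4 library (adjusted p = 0.108 and 0.0888), and Bcl6 without any 1 of the 6 (adjusted p = 0.0564 to 0.171).

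**Figure D4:**
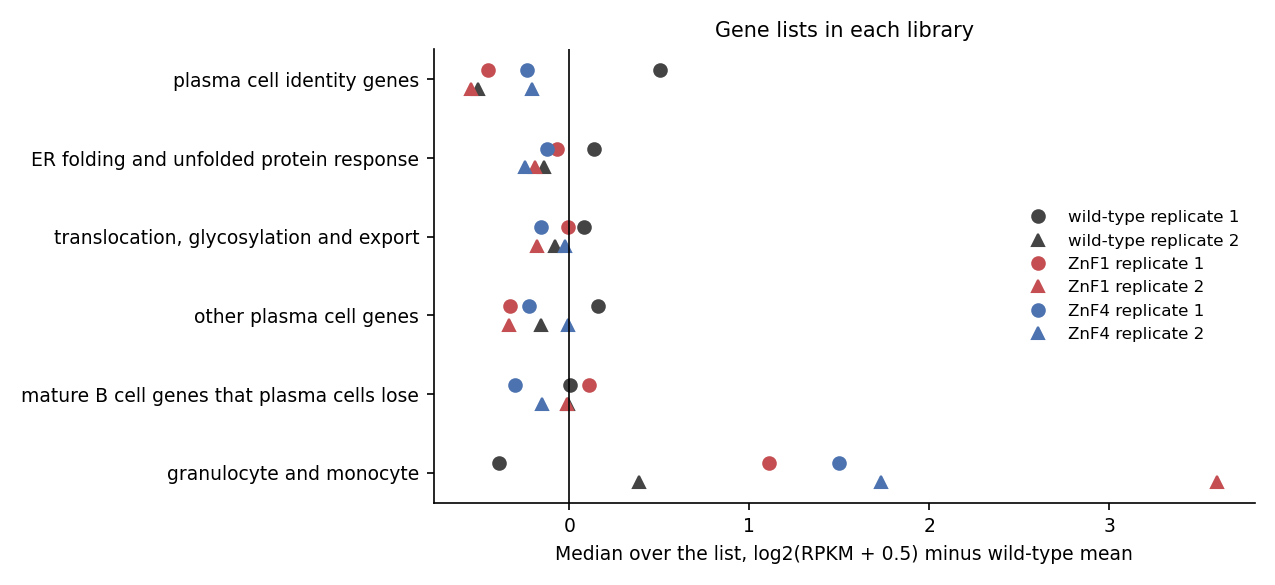
Median over each gene list of the log2(RPKM + 0.5) value minus the wild-type mean, 1 point per library (circles replicate 1, triangles replicate 2). The plasma cell genes are at 0.506 in wild-type replicate 1 and below 0 elsewhere, and granulocyte and monocyte markers reach 3.60 in ZnF1 replicate 2.

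Markers of other cells were mostly lower in wild-type replicate 1 than in wild-type replicate 2. Plasmacytoid dendritic cells share several secretory genes with plasma cells, and Siglech, a receptor that defines them, was at 1.1 and 4.0 RPKM in wild type, 5.3 and 7.2 in ZnF1-/- cells, and 2.3 and 1.9 in ZnF4-/- cells. Irf7 was at 20.4 and 27.4, 45.1 and 33.8, and 6.6 and 7.1 RPKM in the same order. It fell in ZnF4-/- cells (log2 fold change -1.72, adjusted p = 0.00656 by limma) and was higher in ZnF1-/- than in ZnF4-/- cells (2.43, adjusted p = 0.00205). Siglech was thus lowest in wild-type replicate 1, and Irf7, which B cells also express, in ZnF4-/- cells. Cox6a2 was at 3.9 and 12.5, 4.0 and 3.0, and 0.9 and 0.8 RPKM and fell in ZnF4-/- cells too (-2.49, adjusted p = 0.0353). They were the 2 called of the 6 tested markers of the plasmacytoid dendritic cell list, of which 5 were negative and 1 positive in ZnF4-/- cells. Siglech stood at -0.05 there (adjusted p = 0.969 by limma). Tcf4 was the positive one (0.49, adjusted p = 0.0999), at 20.9 and 24.1 RPKM in wild type and 30.6 and 32.7 in ZnF4-/- cells. Without either ZnF4 library no call of Irf7 or Cox6a2 held (adjusted p = 0.0627 to 0.303), and the ZnF4 calls were also lost without wild-type replicate 2 (adjusted p = 0.0693 and 0.107) and, for Irf7, without wild-type replicate 1 (adjusted p = 0.0589). All 6 tested markers of that list were lower in wild-type replicate 1 than in replicate 2, and Klk1 was listed at 0 in replicate 1. The summed level of its 9 markers was 957 and 1223 RPKM in wild type, 1014 and 856 in ZnF1-/- cells, and 841 and 686 in ZnF4-/- cells, most of it from Spib, which B cells express. Of the 16 granulocyte and monocyte markers, 15 were lower in wild-type replicate 1 than in replicate 2, as were 7 of 9 erythroid markers, with 1 equal. Over the 16 granulocyte and monocyte markers, the median log2 fold change was 2.36 in ZnF1-/- and 1.64 in ZnF4-/- cells, with 0 called by limma and 15 and 7 at an unadjusted p under 0.05 (11.9% and 17.4% of all tested genes). The part of these cells in the differences between genotypes was not tested.

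The genes whose levels ran most like Igj over the 6 libraries, among 459 genes with a range of at least 2 on the log2 scale, were Chst1 (Pearson r = 0.960), Ston1 (0.945), Tigit (0.896), Cxcr3 (0.858), Spon1 (0.827) and Hist1h1c (0.753). Chst1, a sulfotransferase gene, was at 3.8 RPKM in wild-type replicate 1 and listed at 0 in replicate 2, at 0.1 and 0 in ZnF1-/- cells, and at 1.5 and 1.7 in ZnF4-/- cells. Cxcr3, a chemokine receptor gene, was at 5.0 and 0.6, 1.1 and 1.3, and 5.2 and 8.3 RPKM in the same order, so that it was highest in ZnF4-/- cells. Most like Sdc1 were Bmf and Rapgef3 (both 0.991), Bhlha15 (0.967), Eaf2 (0.947), Emid1 (0.890) and Col5a3 (0.883). Bmf, a promoter of cell death, was at 54.4 and 37.3 RPKM in wild type, 16.1 and 12.8 in ZnF1-/- cells, and 26.6 and 22.8 in ZnF4-/- cells. These correlations describe 6 libraries of 3 genotypes and were not tested.

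Among themselves, the plasma cell genes followed more than 1 profile over the 6 libraries. Xbp1 and Creld2 ran together (r = 0.964), as did Sdc1 and Derl3 (0.914) and Slamf7 and Ell2 (0.904). Xbp1 was close to Igj (0.892) and Fkbp11 (0.837), and the lowest value of any pair was that of Slamf7 and Fkbp11 (-0.206). The Xbp1 and Creld2 values were set apart mainly by wild-type replicate 1. Those of Igj and Fkbp11 were highest in wild-type replicate 1 and lowest in wild-type replicate 2, with the mutants between. Those of Sdc1 and Derl3 were lowest in ZnF1-/- cells, and those of Slamf7 and Ell2 were highest in ZnF4-/- cells.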

How the data were processed

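The authors deposited 1 table of RPKM per RefSeq transcript and library, rounded to steps of 0.1. Per the submitters' processing notes, TopHat, bedtools and the assembly mm9 were used; versions and the read total behind the scaling are not given in the sources used here. The row with the highest mean stood for each gene name. Values were used as log2(RPKM + 0.5), and fold changes on this scale understate those of weak genes. Genes with a mean of at least 1 RPKM were tested, 10322 in all. All 6 libraries entered 1 limma 3.58.1 model of genotype in R 4.3.3 (eBayes with trend, two-sided), with Benjamini-Hochberg adjustment over all tested genes and a threshold of 0.05. The fit was tested on simulated data. The members, gene lists and naming rule (all 10 genes; per list up to 4 called genes or the 2 with the smallest p; the 6 nearest profiles of Igj and of Sdc1) were chosen with earlier results of these data known. In the list of genes that plasma cells switch off, 1 gene is not reported here and was left out of its counts. Not every gene that the naming rule selects is named, Herpud1, Dnajb11, Tram1, Lman1 and Ssr4 being left out. Markers are named only where they stand beside a result. Promoters came from RefSeq tables of GRCm38.p6, which served only for names and sequences. Alternatives changed the pseudocount, filter, scaling, spread, samples and replicate block.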

Additional observations from a re-analysis of the deposited data

Results flagged for a closer look

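Of the 8 tested genes, 2 differed between the mutants by the direct comparison in limma. It called 4.78% of all tested genes, and 2.69% as lower in ZnF1-/- cells. Slamf7 was lower in ZnF1-/- than in ZnF4-/- cells, with a log2 difference of -1.04 (adjusted p = 0.0052), below wild type in both ZnF1 libraries and above it in both ZnF4 libraries. Ell2 was lower by the same comparison, with a log2 difference of -1.25 (adjusted p = 0.0206) and the same order of the libraries. As given above, neither gene passed against wild type in either mutant. Both calls were lost without either ZnF4 library, but so was almost every other call, so these losses are not particular to the 2 genes. Without ZnF4 replicate 1 and 2 the log2 difference was -1.11 and -0.98 for Slamf7, and -1.21 and -1.29 for Ell2. Groups of 2 libraries were not screened for outlying values, and the gap between the wild-type libraries in Igj is given as values only.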

How the results depend on the processing

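The number of called plasma cell genes moved with the processing. Against wild type, Sdc1 was the 1 gene called in ZnF1-/- cells. The count was 0 without a filter, with a minimum of 0.2 RPKM, with quantile normalization and when only the 2 genotypes compared were fitted. In these settings 3 or 4 plasma cell genes had an unadjusted p under 0.05 by limma, as had 10.2% to 11.9% of all tested genes. The number of plasma cell genes called both rose and fell when single libraries were left out. For ZnF4-/- cells, 0 became 1 with quantile normalization or rescaling to TPM and 2 with only the 2 genotypes compared, and ran from 0 to 2 without single libraries. Between the mutants, 2 became 1 without a filter. This count fell without either ZnF4 library or ZnF1 replicate 2, and rose without ZnF1 replicate 1 or either wild-type library. Over all tested genes, the calls in ZnF1-/- cells went from 28 to 0 without a filter, without either wild-type or either ZnF4 library, or with only the 2 genotypes compared, to 10 with a minimum of 0.2 RPKM, to 13 with quantile normalization, to 7 without ZnF1 replicate 2 and to 512 without ZnF1 replicate 1. In ZnF4-/- cells they went from 330 to 189 without a filter, to 594 with only the 2 genotypes compared, to 11 and 3 without wild-type replicate 1 and 2, to 591 and 585 without ZnF1 replicate 1 and 2, and to 0 without either ZnF4 library. Between the mutants they went from 493 to 309 without a filter, to 249 with only these 2 genotypes, to 259 without either wild-type library, to 814 without ZnF1 replicate 1, and to 0 and 2 without ZnF4 replicate 1 and 2. With rescaling to TPM, 3 plasma cell genes were called between the mutants, Sdc1 being added (adjusted p = 0.0488 by limma). Fitting only the mutants also called 3, Derl3 being added (adjusted p = 0.0437 by limma). Where a fit called almost no gene, the loss of a call in it is not particular to the gene that lost it. The cause of these shifts was not tested.

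The fold changes of the plasma cell genes changed sign only when a library was left out. The log2 fold change ranged from -0.91 to 0.17 for Xbp1, -5.83 to 2.19 for Igj and -1.03 to 1.17 for Fkbp11 in ZnF1-/- cells. In ZnF4-/- cells it ranged from -0.72 to 0.35 for Xbp1, -2.59 to 5.43 for Igj, -0.69 to 0.19 for Creld2, -0.73 to 0.22 for Derl3 and -1.38 to 0.83 for Fkbp11. Wild-type replicate 1 or 2 was the library left out in all of these reversals, except that Fkbp11 also turned to -0.03 without ZnF1 replicate 1. Of 653 recomputed values of single genes, 560 kept their direction and side of the threshold, 29 gained a call, 51 lost one, 9 fold changes reversed and 3 gaps between the wild-type libraries moved. The remaining 1, the gap of Slamf7 of 0.02, became -0.0062 with rescaling to TPM.

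The labels give the replicates of each genotype the numbers 1 and 2. Replicate differences correlated across genes with r = 0.28 (wild type and ZnF1), -0.033 (wild type and ZnF4) and 0.208 (the mutants). These values do not settle whether libraries of the same number share a batch. The main fit did not take the numbers as pairs, and the block was fitted as an alternative. With the replicate block, 1, 0 and 3 genes were called in the 3 comparisons, Derl3 joining Slamf7 and Ell2 between the mutants (adjusted p = 0.031). Among the other genes followed through the alternatives, the block added Bhlha15 (adjusted p = 0.0315) and Eaf2 (adjusted p = 0.0187 by limma) in ZnF1-/- cells. In ZnF4-/- cells it added Trp53inp1 (adjusted p = 0.0172) and removed Tram2 (adjusted p = 0.0627). Cd4 was not followed.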

Other observations

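A further description, chosen after the values were seen, sets the mutants on the span between the wild-type libraries, with replicate 2 at 0% and replicate 1 at 100%. The ZnF4 mean lay at 16.3% for Igj, 17.0% for Creld2, 17.9% for Derl3, 21.4% for Fkbp11, 21.9% for Prdm1, 23.2% for Tnfrsf17 and 25.1% for Xbp1. Single ZnF4 libraries lay between 13.9% (Creld2) and 32% (Xbp1, at 18.2% in the other library). These genes were picked because their ZnF4 values lie between the wild-type ones. Of the other 3, Sdc1 lay at -82.5% and Ell2 at 214%, and the span of Slamf7 is too narrow to serve. For the same 7 genes the ZnF1 mean ran from -55.4% for Derl3 through -0.217% for Creld2 and 1.77% for Igj to 34.8% for Fkbp11. The choice of genes held the ZnF4 values inside the span and did not hold the ZnF1 values there. The ranges of the 2 mutants are therefore not like for like. All these values share the wild-type libraries, so the genes are not independent of them, and no test was made.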
